A study of Coturnix japonica with 24 samples.

Results

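The collagen chain genes of the Japanese quail (Coturnix japonica) were examined in abdominal white adipose tissue and liver. They were taken as every gene whose symbol reads COL, a number, A and a number. The rule found 36 of the 17239 genes listed for either tissue, with 34 listed for adipose tissue, 31 for liver and 29 for both. COL6A3, COL4A4, COL7A1, COL9A2 and COL25A1 were listed for adipose tissue alone, and COL9A3 and COL17A1 for liver alone. COL4A3BP, which encodes a ceramide transfer protein and no collagen chain, was not counted. By molecule type the genes were 8 fibrillar, 7 basement membrane and network, 3 beaded filament, 9 fibril-associated, 4 transmembrane and 5 other chains.

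Collagen chains wind into helical molecules that give connective tissue its strength. Fibrillar collagens form the cables of the interstitial matrix, type IV forms the sheet-like network of basement membranes, and type VI forms beaded filaments around cells. Each adipocyte is wrapped in a basement membrane rich in type IV and type VI collagen, and adipose tissue remodels this matrix as it grows or shrinks. In healthy liver, collagen is sparse and is made mainly by stellate cells, portal fibroblasts and the endothelium.

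The birds were males with a history of 16 hours of light a day. They were then kept on days with 8 hours of light (8L), with 12 hours (12v) or with 16 hours (16v). Each photoperiod gave 4 libraries of adipose tissue and 4 of liver, so that 24 libraries fell into 6 groups. The birds' age and the time spent at each photoperiod are not stated in the labels. Polyadenylated RNA of whole tissue was read as PCR-amplified cDNA on a Nanopore sequencer, and 11 of the bird numbers in the library codes occurred in both tissues. Because the samples were bulk tissue, fewer cells of a type and less RNA per cell cannot be told apart in any value below.

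Total counts per library ran from 72716 to 1389063 in adipose tissue and from 72125 to 867217 in liver. Summed adipocyte markers ran from 27115 to 64061 CPM, counts scaled to the size of the library, in adipose libraries, against 953 to 1586 CPM in liver libraries. Summed hepatocyte markers ran from 2047 to 21281 CPM in adipose libraries, against 85605 to 170658 CPM in liver libraries. Between adipocyte and hepatocyte markers, each library was thus led by those of its own tissue. These sums were scaled within each tissue, so their scale differs between tissues. Skeletal muscle markers stood apart in adipose libraries, at 5197 CPM in 8L replicate 1, 11324 CPM in 12v replicate 2, 8979 CPM in 16v replicate 2 and 79549 CPM in 16v replicate 4. The other 8 adipose libraries held 14.9 to 1159 CPM of these markers. In 16v replicate 4 the muscle sum exceeded the adipocyte sum of 47621 CPM. CKM, a muscle creatine kinase, was at 0 in every adipose group. Ribosomal protein genes took 11.4% to 12.5% of counts in liver 12v replicates 1, 2 and 3 and in 16v replicate 1. Elsewhere in liver they took 6.20% to 10.7%.

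Counts were summed over the transcripts of a gene, and for many collagen genes nearly the same count recurred on several transcripts, so that a sum may hold a read more than once. How reads were assigned to transcripts is not stated in the labels. The count of the highest transcript in each library, called the largest-transcript count here, is therefore given as a measure of how few reads could lie behind a sum. The sum was 6.93 times this count for COL3A1 in adipose tissue and 7 times in liver, 18.9 times for COL23A1 in adipose tissue, and 1 time for COL1A1 and COL1A2, which have a single transcript each. On the largest-transcript count, collagen chain genes held 161 to 4782 counts per adipose library and 19 to 181 per liver library. Without transcript lengths, levels were compared between groups and never between genes.

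Adipose tissue carried far more collagen RNA than liver. The summed chains took 0.335% to 1.41% of counts in the 12 adipose libraries, against 0.0336% to 0.162% in the 12 liver libraries, and the ranges did not overlap. On the largest-transcript count, the share ran from 0.186% (95% exact binomial interval 0.172% to 0.201%) to 0.699% (0.674% to 0.724%) in adipose libraries. On that measure it ran from 0.0104% (0.00718% to 0.0145%) to 0.0492% (0.0296% to 0.0768%) in liver libraries. The intervals allow for counting error alone, because PCR copies of 1 molecule cannot be told from separate molecules here. By photoperiod, the share of summed chains ran from 0.822% to 1.41% at 8L, 0.612% to 0.862% at 12v and 0.335% to 1.02% at 16v in adipose libraries. In liver libraries it ran from 0.0336% to 0.0798% at 8L, 0.0537% to 0.122% at 12v and 0.102% to 0.162% at 16v. Every liver library at 16v thus held a larger collagen share than every one at 8L, while in adipose tissue 16v and 8L overlapped.

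Of the 29 genes listed for both tissues, 20 had enough counts to be tested in a joint edgeR quasi-likelihood fit of the 24 libraries. At an adjusted p under 0.05, 14 of the 20 were higher in adipose tissue and 1, COL13A1, was lower. Of all 7107 genes tested, 54.9% passed this threshold, 31% as higher and 23.9% as lower in adipose tissue. The 12 adipose libraries lay wholly above the 12 liver libraries for 8 of the 20, and wholly below them for 1, against 4.98% and 5.5% of all genes. The median log2 fold change was 3.46 over the 20 collagen genes and 0.29 over all genes tested. A gene passed the count filter through either tissue, so these counts describe the tested genes and not all 29. CPM values in the paragraphs on this contrast come from the joint fit and are given as the lowest, median and highest of 12 libraries per tissue.

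The fibrillar chains, which build the interstitial fibrils, were higher in adipose tissue for 5 of the 6 tested. COL3A1, the single chain of type III collagen, ran from 934 through a median of 3049 to 7146 CPM in adipose libraries, against 62.4, 202 and 431 CPM in liver libraries. The log2 fold change was 3.92 ± 0.29 (SE; edgeR adjusted p = 1.14e-10), and the lowest adipose library lay above the highest liver library. COL1A1 and COL1A2, the chains of type I collagen, followed the same order. COL1A1 ran from 95.2 through 227 to 395 CPM in adipose libraries, against 7.37, 12.3 and 41.1 CPM in liver libraries (log2 fold change 3.98 ± 0.32, edgeR adjusted p = 3.53e-10). COL1A2 ran from 99.9 through 314 to 446 CPM in adipose libraries, against 0, 26.2 and 58.2 CPM in liver libraries (3.74 ± 0.34, edgeR adjusted p = 3.29e-09).

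Type V collagen, which sets the start and width of type I fibrils, was also higher in adipose tissue. COL5A1 ran from 88.2 through 218 to 317 CPM in adipose libraries, against 0, 19.998 and 34.6 CPM in liver libraries (log2 fold change 3.50 ± 0.34). COL5A2 ran from 44.3 through 71.2 to 101 CPM in adipose libraries, against 0, 6.53 and 14.2 CPM in liver libraries (3.59 ± 0.32). For both chains the tissues did not overlap. COL11A1, a minor chain of cartilage fibrils, had 1.82 CPM at the median of adipose libraries and 2.53 CPM in liver libraries, with a log2 fold change of 0.41 ± 0.92 that did not pass. COL24A1 and COL27A1, the other fibrillar chains, fell under the count filter, and COL27A1 had a single liver count.

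The beaded filament chains of type VI collagen had the largest fitted fold changes of the 14 genes higher in adipose tissue. COL6A1 ran from 230.4 through 568 to 1096 CPM in adipose libraries, against 0, 3.05 and 11.2 CPM in liver libraries. This gave a log2 fold change of 7.18 ± 0.48 (edgeR adjusted p = 2.70e-11). COL6A2 ran from 69.3 through 171 to 284 CPM in adipose libraries, against 0, 0 and 4.90 CPM in liver libraries, and was above 0 in 4 of 12 liver libraries. For this chain the log2 fold change was 7.08 ± 0.51 (edgeR adjusted p = 8.42e-11). On the largest-transcript count, COL6A1 had 3100 counts in adipose tissue and 12 in liver, and COL6A2 had 1598 in adipose tissue and 6 in liver. COL6A3, a longer chain of the same molecule, ran from 233 through 703 to 1074 CPM in adipose libraries and is not listed for liver, so no fold was computed for it.

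**Figure D1:**
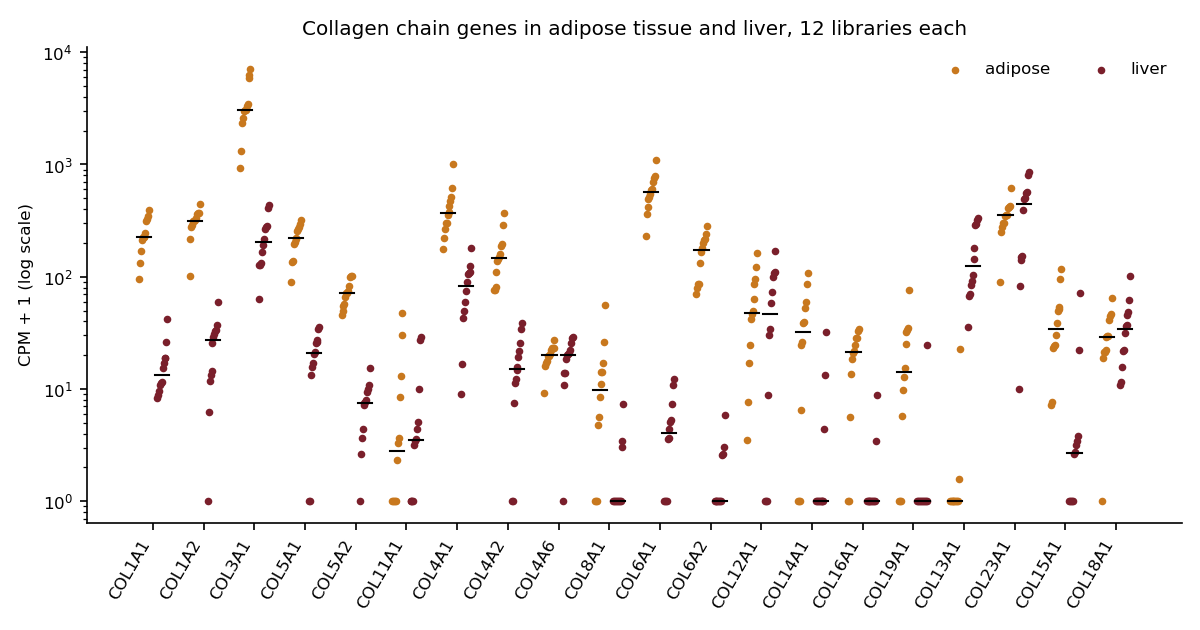
CPM + 1 on a log axis for the 20 collagen genes tested in both tissues, with 12 adipose libraries left of 12 liver libraries for each gene and a bar at the median. COL3A1 spans 934 to 7146 CPM in adipose tissue and 62.4 to 431 CPM in liver, and COL13A1 is the gene whose liver libraries all lie above the adipose ones.

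Among basement membrane and network chains, the common type IV pair was higher in adipose tissue, and COL4A6 did not pass. COL4A1 ran from 175 through 366 to 1008 CPM in adipose libraries, against 8.02, 81.5 and 180.4 CPM in liver libraries. The highest liver library passed the lowest adipose library, and the log2 fold change was 2.53 ± 0.28 (edgeR adjusted p = 8.80e-08). COL4A2 ran from 75.2 through 146 to 369 CPM in adipose libraries, against 0, 14.2 and 37.9 CPM in liver libraries (3.35 ± 0.37, edgeR adjusted p = 8.55e-08). COL4A6, a minor type IV chain, ran from 8.27 through 19.2 to 26.5 CPM in adipose libraries, against 0, 19.3 and 28.1 CPM in liver libraries. Its log2 fold change of 0.09 ± 0.29 was within its error. In the quail RefSeq gene table (Coturnix japonica 2.1) COL4A1 neighbours COL4A2, and COL4A5 neighbours COL4A6. COL8A1, a network chain made by endothelial and smooth muscle cells, passed with a log2 fold change of 3.42 ± 0.87. It had 31 largest-transcript counts in adipose tissue and 3 in liver, a ratio of 8.41 per count of each tissue's total (95% exact interval 2.62 to 43.005). This interval pools the counts of all libraries of a tissue and allows for counting error alone, not for the spread between birds.

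The fibril-associated chains bind the surface of fibrils without forming fibrils of their own. COL14A1, COL16A1 and COL19A1 passed as higher in adipose tissue, and COL12A1 did not pass. COL14A1 ran from 0 through 31.3 to 108 CPM in adipose libraries, against 0, 0 and 31.4 CPM in liver libraries, with counts in 9 of 12 adipose libraries and 3 of 12 liver libraries. COL14A1 had no liver count at 8L, COL16A1 none at 12v and COL19A1 none at 8L or 12v, so their fitted folds depend on the prior count of the fit and are not printed. On the largest-transcript count, COL14A1 had 51 counts in adipose tissue and 4 in liver, a ratio of 10.4 per count of each tissue's total (95% exact interval 3.82 to 39.5). The same ratio was 19.5 (5.12 to 166) for COL16A1 and 10.9 (3.46 to 54.9) for COL19A1. These intervals pool the counts of all libraries of a tissue and allow for counting error alone, not for the spread between birds. All 3 liver counts of COL19A1 were in 1 library, 16v replicate 2. With the bird as a block, COL14A1 no longer passed (edgeR adjusted p = 0.0696), while the other 14 did.

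COL12A1, a fibril-associated chain common in dense connective tissue, ran from 2.51 through 46.8 to 162 CPM in adipose libraries, against 0, 45.4 and 169 CPM in liver libraries. The fitted log2 fold change of 0.35 ± 0.58 did not pass. The remaining fibril-associated chains, COL9A1, COL9A2, COL9A3, COL20A1 and COL21A1, had 1 to 27 summed counts in any tissue that lists them and were not tested.

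Of the multiplexins, which carry heparan or chondroitin sulfate and lie at basement membranes, COL15A1 was higher in adipose tissue and COL18A1 did not pass. COL15A1 ran from 6.20 through 33.5 to 116 CPM in adipose libraries, against 0, 1.69 and 71.4 CPM in liver libraries (log2 fold change 3.07 ± 0.76, edgeR adjusted p = 0.00156). COL18A1, the precursor of endostatin, ran from 0 through 28.3 to 63.7 CPM in adipose libraries, against 9.80, 33.0 and 101 CPM in liver libraries (-0.15 ± 0.40). COL7A1, the chain of the anchoring fibrils of skin, had 1 count in adipose tissue.

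The transmembrane chains span the cell membrane with their collagen part outside the cell. COL13A1 was the gene that passed as lower in adipose tissue. It ran from 0 through 0 to 21.7 CPM in adipose libraries, against 34.3, 123 and 331 CPM in liver libraries, and the tissues did not overlap. Its CPM rested on 3 largest-transcript counts in adipose tissue and 40 in liver, an adipose over liver ratio of 0.0611 (95% exact interval 0.0121 to 0.192). This interval again pools libraries and allows for counting error alone. COL13A1 has 18 listed transcripts in adipose tissue and 21 in liver, and it had no adipose count at 16v, so its fitted fold is not printed in the text. COL23A1 ran from 87.9 through 352 to 621 CPM in adipose libraries, against 8.92, 443 and 854 CPM in liver libraries (log2 fold change -0.03 ± 0.38). Its largest-transcript count was 195 in adipose tissue and 126 in liver.

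Taken photoperiod by photoperiod, the same fit called 12 of 20 genes higher in adipose tissue at 8L, 12 at 12v and 11 at 16v, against 14.8%, 16.7% and 16% of all genes. COL13A1 was the 1 gene called lower at each photoperiod, against 13.4%, 15.7% and 17.2% of all genes. The adipose over liver log2 fold change of COL3A1 was 5.27 ± 0.53 at 8L, 3.76 ± 0.50 at 12v and 2.71 ± 0.47 at 16v. That of COL4A1 was 4.36 ± 0.53 at 8L, 1.75 ± 0.48 at 12v and 1.48 ± 0.47 at 16v. COL6A1 had 7.05 ± 0.82 at 8L, 7.34 ± 0.86 at 12v and 7.14 ± 0.82 at 16v. Whether the tissue difference varied with photoperiod is tested further on.

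**Figure D2:**
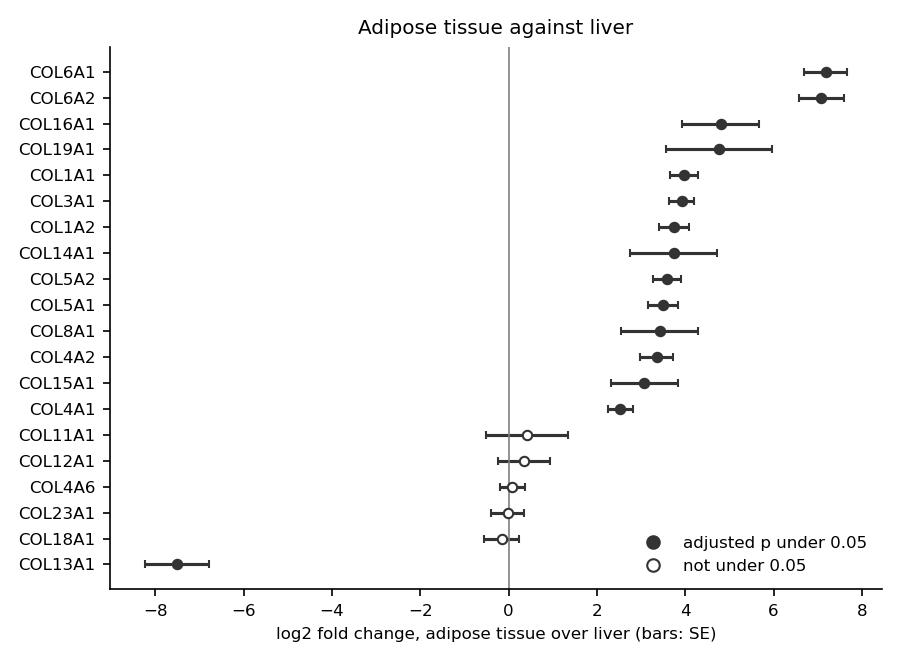
Fitted log2 fold change of adipose tissue over liver, with SE bars, for the 20 tested collagen genes. Filled points passed the adjusted p of 0.05: 14 lie to the right of 0 and COL13A1 to the left, and the 5 open points are COL11A1, COL12A1, COL4A6, COL23A1 and COL18A1. COL13A1, COL14A1, COL16A1 and COL19A1 each had a group with no counts, so the places of their points depend on the prior count of the fit.

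Markers of the cells that make collagen also differed between the tissues. Against 31% of all genes higher and 23.9% lower in adipose tissue, all 9 tested fibroblast markers were higher, among them VIM with a log2 fold change of 7.11 ± 0.32 and FSTL1 with 4.52 ± 0.38. A marker could pass the count filter through adipose tissue alone, so these counts describe the tested genes and not the lists. Fitted by tissue, 9 fibroblast, 8 endothelial and 8 stellate and mural markers were tested in adipose tissue, against 2, 3 and 5 in liver. Of 9 tested endothelial markers, 8 were higher and 1, LYVE1, was lower in adipose tissue. Of 8 tested stellate and mural markers, 6 were higher in adipose tissue. That list shares DES with the skeletal muscle markers and holds other contractile genes, and some adipose libraries were high in muscle markers. The part of muscle in these values was not tested, nor was the part of any of these cells in the collagen differences.

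The enzymes and partners of collagen are set here against the same 31% and 23.9% of all genes. The same limit of the count filter holds for them. Fitted by tissue, 7 genes for propeptide removal and cross-linking were tested in adipose tissue and 0 in liver. Of the collagen receptors, 3 were tested in adipose tissue and 1 in liver. Of 11 tested genes for folding and modifying collagen, 5 were higher and 4 lower in adipose tissue. SERPINH1, the collagen chaperone HSP47, had a log2 fold change of 3.39 ± 0.41, and PLOD2, which hydroxylates lysines of the telopeptides, had 4.17 ± 0.43. P4HB, a subunit of prolyl hydroxylase that is also a general disulfide isomerase, was lower with -2.11 ± 0.17. Of 5 tested genes for propeptide removal and cross-linking, 4 were higher, including LOXL3, a lysyl oxidase, at 6.55 ± 0.68 and PCOLCE2, an enhancer of propeptide cleavage, at 5.78 ± 0.57.

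Of 7 tested breakdown genes and inhibitors, 5 were higher and 1 lower in adipose tissue, with CTSK, a collagen-cutting cathepsin, at 4.94 ± 0.59 and MMP2, a gelatinase, at 3.18 ± 0.41. All 3 tested collagen receptors, ITGB1, ITGA11 and DDR1, were higher. Of 16 tested matrix partners, 12 were higher and 2 lower, with SPARC, a collagen-binding glycoprotein, at 4.93 ± 0.45. Of 9 tested basement membrane partners, 7 were higher and 1 lower, with LAMC1, a laminin chain, at 3.30 ± 0.33. Of 10 tested genes of TGF-beta signalling, a pathway that induces collagen, 8 were higher and 1 lower.

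Within liver, the day-length contrasts gave no collagen gene past the threshold, while the fitted values at 16v lay above those at 8L. CPM values from here on come from a fit of 1 tissue, so they differ in scale from those of the joint fit. Of the 31 genes listed for liver, 9 were tested. At the edge of the filter, COL4A6 was tested and COL4A2 was not, each with 99 summed counts. For 16v against 8L, 0 of 9 passed an edgeR adjusted p of 0.05, against 0.794% of the 4532 genes tested. At an unadjusted p under 0.05, 3 of 9 were higher, against 10.3% of all genes, and DESeq2 also called 0. All 9 fitted fold changes were above 0, with a median of 0.92, against 0.07 over all genes and 52.5% of all genes above 0. All 9 stayed above 0 with both other scalings, and 8 of 9 with the ribosomal protein share as a covariate. A gene could pass the count filter through the libraries of any photoperiod, so these signs describe the tested genes and not all 31. With no filter, 24 of the 31 lay above 0 and 5 below. COL1A1, under the filter, had means of 10.4 CPM at 8L and 11.1 CPM at 16v.

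COL4A1 had the smallest p of the liver genes. Its levels were 6.71, 13.5, 35.5 and 41.9 CPM at 8L, 91.2, 128, 129 and 45.8 CPM at 12v, and 81.3, 86.1, 66.2 and 52.5 CPM at 16v. Every 12v and 16v library lay above every 8L library in CPM of the summed counts. Its largest-transcript counts were 1, 2, 7 and 12 at 8L and 12, 35, 4 and 10 at 12v. At 16v they were 15, 30, 19 and 18. On these counts 12v replicate 4 held fewer than 8L replicate 4. The log2 fold change of COL4A1 was 1.51 ± 0.55 for 16v against 8L (edgeR adjusted p = 0.141). For 12v against 8L it was 1.96 ± 0.56 (edgeR adjusted p = 0.122). COL4A2, the partner chain, was not tested in liver. Its means were 12.9 CPM at 8L, 5.95 CPM at 12v and 18.2 CPM at 16v. The 16v libraries lay wholly above the 8L libraries for 2 of the 9 genes, against 9.86% of all genes, and the 12v libraries did for 3 of the 9, against 5.36%.

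COL3A1 was the other gene whose 16v libraries all lay above those at 8L. Its levels were 109.7, 110.0, 161 and 108 CPM at 8L, 179.6, 306, 75.0 and 131 CPM at 12v, and 323, 193, 209 and 188 CPM at 16v. The log2 fold change for 16v against 8L was 0.90 ± 0.40 (edgeR adjusted p = 0.223), and the 12v libraries spanned both groups. COL1A2 had 11.2, 4.49, 10.5 and 20.9 CPM at 8L, 48.5, 23.3, 0 and 8.48 CPM at 12v, and 28.6, 22.1, 20.8 and 21.0 CPM at 16v. COL5A1 had 13.4, 0, 12.5 and 20.9 CPM at 8L, 17.1, 8.75, 0 and 15.3 CPM at 12v, and 19.8, 23.2, 19.5 and 24.5 CPM at 16v. Both had groups that overlapped between 16v and 8L, and the 12v library at 0 for each was replicate 3, the shallowest at 72125 counts. Over the 12 liver libraries the largest-transcript count was 179 for COL3A1, 132 for COL1A2 and 38 for COL5A1.

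COL12A1 and COL18A1 also rested on few reads in liver, COL18A1 on 91 largest-transcript counts. COL12A1 had 0, 6.73, 25.1 and 0 CPM at 8L, 59.9, 70.0, 129 and 0 CPM at 12v, and 85.7, 118, 24.7 and 40.8 CPM at 16v. For 16v against 8L the log2 fold change was 3.08 ± 1.28 (edgeR adjusted p = 0.184), from 55 largest-transcript counts over the 12 libraries, and 1.85 with the ribosomal protein share as a covariate. COL18A1 had 17.9, 17.95, 12.5 and 8.38 CPM at 8L, 39.9, 43.7, 42.8 and 23.8 CPM at 12v, and 79.1, 30.9, 7.79 and 25.7 CPM at 16v. Its 12v libraries lay above all 8L libraries, and its 16v libraries did not. The log2 fold changes of COL18A1 were 1.31 ± 0.63 for 16v and 1.39 ± 0.65 for 12v, each against 8L (edgeR adjusted p = 0.256 and 0.274).

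For 12v against 8L in liver, 0 of 9 genes passed in edgeR, against 0.331% of all genes, and 3 of 9 were higher at an unadjusted p under 0.05, against 9.97%. DESeq2 called COL4A1 (adjusted p = 0.0176), and so did edgeR without 12v replicate 4 (adjusted p = 0.0408). The share of all genes called is not given here for either fit. Without the 4 liver libraries highest in ribosomal protein counts, which leaves replicate 4 alone at 12v, COL4A1 had 0.96 (edgeR adjusted p = 0.849) for 12v against 8L and 1.58 (0.172) for 16v against 8L. COL13A1 had 76.1, 71.8, 87.8 and 29.3 CPM at 8L, 119.7, 210.0, 343 and 249 CPM at 12v, and 259, 46.3, 132 and 48.97 CPM at 16v. Its 12v libraries lay above all 8L libraries, and the 12v over 8L log2 fold change was 1.79 ± 0.60 (edgeR adjusted p = 0.168). These values rested on few reads, with largest-transcript counts of 2, 2, 2 and 1 at 8L and 2, 7, 2 and 7 at 12v. For 12v against 8L COL12A1 had 2.94 ± 1.31, which became 0.86 with the ribosomal protein share as a covariate.

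For 16v against 12v in liver, 0 of 9 passed, against 0.0221% of all genes, and 0 had an unadjusted p under 0.05, against 1.99%. The 16v libraries lay wholly above the 12v libraries for 2 genes, COL23A1 and COL5A1, against 1.7% of all genes. The largest-transcript counts of COL5A1 were 3, 7, 5 and 7 at 16v and 2, 2, 0 and 3 at 12v. On these counts, which are not scaled, 16v replicate 1 and 12v replicate 4 were equal, from totals of 265689 and 399620 such counts over all genes. COL23A1 had 668, 398, 369.9 and 568 CPM at 16v, against 325, 360.2, 10.7 and 64.5 CPM at 12v, and the smallest p of this contrast (log2 fold change 1.35 ± 0.74). COL13A1 had -0.92 ± 0.58, COL5A1 0.90 ± 0.82 and COL3A1 0.37 ± 0.40, each with an edgeR adjusted p of 0.999 like COL23A1.

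Endothelial markers in liver lay higher as a sum on the longer days, as COL4A1 did. Summed over 16 markers, they ran from 76.1 to 137 CPM at 8L, 151 to 246 CPM at 12v and 161 to 251 CPM at 16v, with 15, 14 and 13 of the markers above 0 in these groups. ROBO4 was at 0 at 8L, VWF and ROBO4 were at 0 at 12v, and FLT1, ESAM and STAB1 were at 0 at 16v. Taken singly, 5.36% of all genes had 12v libraries wholly above 8L, and 9.86% had 16v libraries wholly above 8L. Stellate and mural markers summed to 204 to 245 CPM at 8L, 161 to 359 CPM at 12v and 306 to 532 CPM at 16v, with 11, 11 and 12 of 16 above 0. Hepatocyte markers lay lower at 16v than at 8L in every library, with sums of 129781 to 170658 CPM at 8L, 89139 to 153593 CPM at 12v and 85605 to 124184 CPM at 16v, and 17, 18 and 18 of 20 above 0. Of 17 tested hepatocyte markers, 15 had 12v values below 8L, against 52.7% of all genes, with a median log2 fold change of -0.73. Of these markers 0 were called, against 0.331% of all genes. At 16v against 8L, 11 of the 17 lay below 0, against 47.5% of all genes, with a median of -0.51. Of the 17, 1 was called higher and 1 lower, against 0.794% of all genes called in either direction. Fibroblast markers summed to 71.6 to 180.1 CPM at 8L, 53.6 to 201 CPM at 12v and 136 to 182 CPM at 16v. The part of these cells in the collagen values was not tested. Only 3 of 16 endothelial, 5 of 16 stellate and mural and 2 of 11 fibroblast markers had enough counts to be tested in liver. None of these tested markers passed in any liver contrast, against 0.0221% to 0.794% of all genes.

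**Figure D3:**
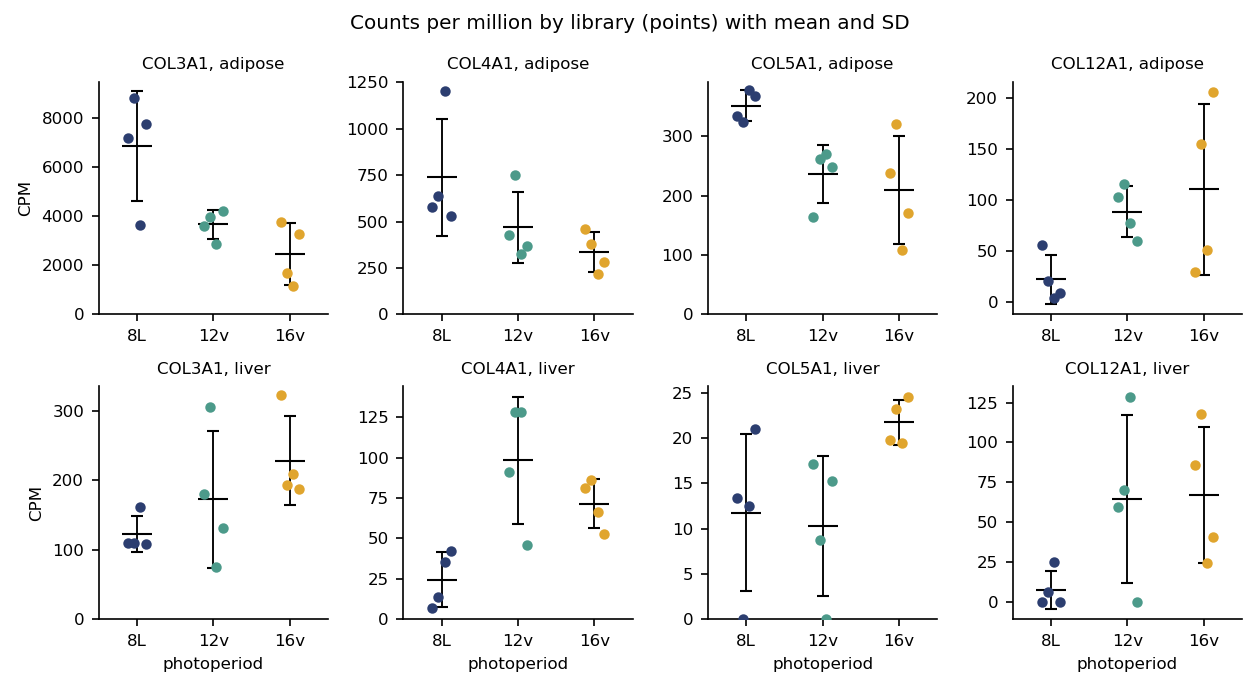
CPM of COL3A1, COL4A1, COL5A1 and COL12A1 in each library (points) with the mean and SD of 4 libraries, by photoperiod, for adipose tissue (upper row) and liver (lower row). COL4A1 at 16v lies wholly below 8L in adipose tissue and wholly above it in liver, and neither difference passed the adjusted threshold.

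Within adipose tissue, 19 of the 34 listed genes were tested, and 0 passed in any of the 3 day-length contrasts in edgeR. For 16v against 8L this stood against 0% of the 6494 genes tested, for 12v against 8L against 0.0154%, and for 16v against 12v against 0%. DESeq2 called COL3A1 alone in the first of these contrasts (adjusted p = 0.0382) and 0 collagen genes in the others. How many of all genes DESeq2 called in the first contrast is given further on, and the counts for the others are not given here. At an unadjusted p under 0.05, 7 of 19 differed between 16v and 8L, 6 lower and 1 higher, against 3.54% and 3.22% of all genes. Between 12v and 8L, 2 of 19 did, COL12A1 and COL3A1, against 4.99%. The 16v over 8L median log2 fold change of the 19 genes was -0.29, against -0.06 over all genes, and 14 lay below 0, against 54.2% of all genes. COL8A1 with 124 summed counts was just inside the filter and COL26A1 with 126 just outside.

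COL3A1 had the smallest p of the adipose genes. Its levels were 7188, 8796, 3631 and 7774 CPM at 8L, 3614, 3983, 2876 and 4213 CPM at 12v, and 3747, 1665, 1151 and 3260.1 CPM at 16v. Replicate 3 was the lowest library of its group at each photoperiod, and its 8L value lay within the range of the other groups, so the groups overlapped. The log2 fold change was -1.48 ± 0.41 for 16v against 8L (edgeR adjusted p = 0.466) and -0.90 ± 0.40 for 12v against 8L. Without the 4 libraries high in muscle markers it was -1.45 for 16v against 8L.

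The type I chains overlapped across the photoperiods. COL1A1 had 399.5, 382, 156 and 491 CPM at 8L, 204, 272, 279 and 421 CPM at 12v, and 278, 309, 117 and 268 CPM at 16v. COL1A2 had 447, 448, 259 and 554 CPM at 8L, 346, 335, 382 and 389.9 CPM at 12v, and 453, 392, 123 and 424 CPM at 16v. The log2 fold change of COL1A1 for 16v against 8L was -0.57 ± 0.40 and its groups overlapped. Of the type V chains, COL5A1 was steadiest at 8L, with SDs of 26.2 CPM at 8L, 48.7 CPM at 12v and 91.2 CPM at 16v. COL5A2 was steadiest at 12v, with SDs of 17.2, 10.8 and 20.3 CPM in the same order. COL5A1 had 335, 324, 379 and 368 CPM at 8L, 164, 262, 270.5 and 248 CPM at 12v, and 239, 321, 109 and 171 CPM at 16v. Every 12v and 16v library of COL5A1 lay below every 8L library, with log2 fold changes against 8L of -0.57 ± 0.32 at 12v and -0.77 ± 0.33 at 16v. COL5A1 was the 1 gene of 19 whose 12v libraries all lay below 8L, against 2.66% of all genes. COL5A2 had 124, 87.8, 120.2 and 122 CPM at 8L, 64.8, 88.1, 79.7 and 87.2 CPM at 12v, and 101, 71.4, 59.4 and 56.1 CPM at 16v (-0.66 ± 0.30 for 16v against 8L).

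Of the 3 type IV chains tested, COL4A1 and COL4A2 had lower levels in every 16v library than in any 8L library, without passing the test, and COL4A6 overlapped. COL4A1 had 580.5, 637, 1205 and 528 CPM at 8L, 428, 749, 325 and 370.5 CPM at 12v, and 459.7, 381, 216 and 279.5 CPM at 16v. COL4A2 had 193, 239, 442 and 233 CPM at 8L, 164, 348, 134 and 182 CPM at 12v, and 175, 95.1, 92.7 and 101 CPM at 16v. The 16v over 8L log2 fold change was -1.15 ± 0.38 for COL4A1 and -1.23 ± 0.39 for COL4A2 (edgeR adjusted p = 0.527 for both). At 12v against 8L COL4A1 had -0.65 ± 0.37. COL4A6 had 20.5, 24.1, 18.04 and 32.9 CPM at 8L, 9.96, 26.7, 22.8 and 27.4 CPM at 12v, and 19.5, 23.8, 26.1 and 28.1 CPM at 16v (0.03 ± 0.40 for 16v against 8L). Groups did not overlap, with 16v lower, for 4 of 19 genes, COL4A1, COL4A2, COL5A1 and COL14A1, against 3.56% of all genes.

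The type VI chains overlapped across all photoperiods. COL6A1 had 735, 728, 433 and 974.6 CPM at 8L, 907, 833, 626 and 597 CPM at 12v, and 1342, 689.8, 284 and 525 CPM at 16v. COL6A2 had 294, 266, 93.2 and 262 CPM at 8L, 242, 158, 105 and 219 CPM at 12v, and 348, 107, 85.4 and 207 CPM at 16v. COL6A3 had 1263, 700.4, 839 and 1334 CPM at 8L, 351, 1116, 777 and 821 CPM at 12v, and 1178, 892, 287 and 1031 CPM at 16v. The spread within a photoperiod exceeded the difference between photoperiod means for each of these chains.

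Of the fibril-associated chains, COL14A1 and COL12A1 had opposite signs between 16v and 8L. COL14A1 had 71.7, 47.4, 102 and 134 CPM at 8L, 62.3, 45.4, 0 and 30.7 CPM at 12v, and 29.2, 0, 0 and 7.01 CPM at 16v. Its 16v over 8L log2 fold change was -3.03 ± 1.01 (edgeR adjusted p = 0.527), on 51 largest-transcript counts over the 12 libraries. COL12A1 had 55.8, 19.8, 3.01 and 8.22 CPM at 8L, 102, 115, 76.9 and 58.9 CPM at 12v, and 29.2, 155, 50.7 and 205 CPM at 16v. Every 12v library of COL12A1 lay above every 8L library, as for no other of the 19 genes and 2.39% of all genes, while 16v replicates 1 and 3 lay within the 8L range. Its log2 fold change against 8L was 1.94 ± 0.74 at 12v and 2.24 ± 0.75 at 16v (edgeR adjusted p = 0.790 and 0.527). At each photoperiod COL12A1 was highest in the libraries high in muscle markers, which are 8L replicate 1, 12v replicate 2 and 16v replicates 2 and 4. Without these 4 libraries its log2 fold change against 8L was 2.77 at 12v and 1.79 at 16v (edgeR adjusted p = 0.804 and 0.763). The part of muscle in the COL12A1 values was not tested.

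COL15A1 had 27.3, 59.5, 60.1 and 29.4 CPM at 8L, 7.47, 45.4, 142 and 64.6 CPM at 12v, and 8.12, 119, 36.2 and 29.1 CPM at 16v. COL18A1 had 25.0, 24.8, 54.1 and 35.2 CPM at 8L, 34.9, 48.1, 0 and 21.8 CPM at 12v, and 78.0, 35.7, 26.1 and 55.1 CPM at 16v. Both multiplexins overlapped across the 3 photoperiods. In the contrast of 16v against 12v, COL4A2 had the smallest p of the 19 genes (log2 fold change -0.82 ± 0.39, edgeR adjusted p = 0.991), and 0 of 19 had an unadjusted p under 0.05, against 4.68% of all genes. Without the 4 muscle-high libraries that fold change was -0.27. COL14A1 had -1.69 ± 1.0, COL19A1 -1.78 ± 1.06 and COL3A1 -0.57 ± 0.40 in this contrast (edgeR adjusted p = 0.991 for each). COL19A1, a fibril-associated chain of basement membrane zones, had 39.8, 17.7, 90.2 and 5.87 CPM at 8L, 37.4, 29.4, 0 and 42.0 CPM at 12v, and 0, 0, 14.5 and 11.02 CPM at 16v. The 15 listed genes under the filter, such as COL21A1, COL24A1 and COL28A1, had 1 to 126 summed counts over the 12 libraries.

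Markers of collagen-making cells in adipose tissue overlapped between photoperiods. Endothelial markers summed to 1429 to 3884 CPM at 8L, 1019 to 2954 CPM at 12v and 942 to 1914 CPM at 16v, with 15, 16 and 15 of 16 above 0. The highest endothelial sum, 3884 CPM, and the highest COL4A1 value, 1205 CPM, were both in 8L replicate 3. Of 8 tested endothelial markers, 7 had 16v values below 8L, against 54.2% of all genes, with CDH5 (VE-cadherin) at -1.18 ± 0.47. Of these markers 0 passed, against 0% of all genes. Fibroblast markers summed to 2131 to 4348 CPM at 8L, 2644 to 3528 CPM at 12v and 2723 to 3999 CPM at 16v, with all 11 above 0. Stellate and mural markers summed to 769 to 1287 CPM at 8L, 382 to 1563 CPM at 12v and 688 to 5401 CPM at 16v, with 12 of 16 above 0 in each group and NOTCH3 at 0. The 5401 CPM was in 16v replicate 4, the library highest in muscle markers, and the other 3 libraries at 16v held 688 to 1368 CPM. The part of these cells in the collagen values was not tested.

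**Figure D4:**
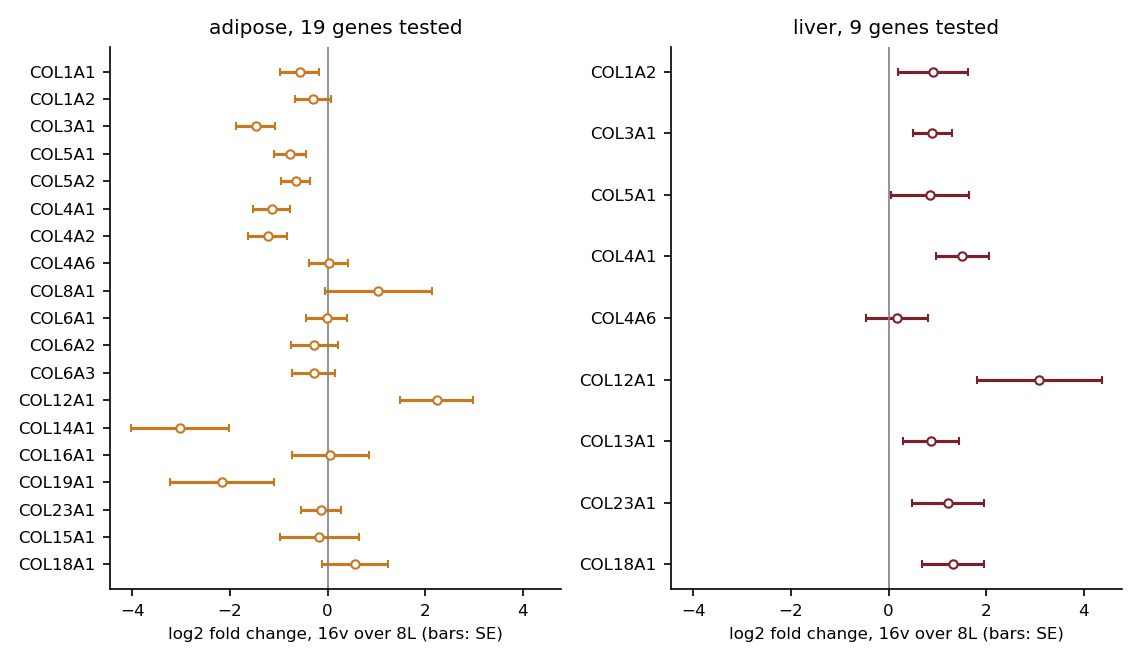
Log2 fold change of 16v over 8L with SE bars for the 19 collagen genes tested in adipose tissue (left) and the 9 tested in liver (right), in the same order of chain types. None passed the adjusted threshold; in liver all 9 lie to the right of 0 and in adipose tissue 14 of 19 lie to the left.

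The difference between the tissues in their day-length contrasts was tested for the 20 jointly fitted genes, and 0 passed in edgeR, against 0.295% of all 7107 genes for 16v against 8L and 0.478% for 12v against 8L. COL4A1 came nearest to the threshold. The adipose minus liver difference in its 16v over 8L log2 fold change was -2.88 ± 0.67 (edgeR adjusted p = 0.0549), and that in its 12v over 8L fold change was -2.60 ± 0.67 (edgeR adjusted p = 0.0860). For COL3A1 the difference at 16v was -2.56 ± 0.64 (edgeR adjusted p = 0.0755). At an unadjusted p under 0.05, 7 of 20 genes had lower values in adipose tissue for 16v against 8L, against 8.51% of all genes, and 0 had higher values, against 6.61%. For 12v against 8L, 3 of 20 were lower, against 5.35%. COL14A1 and COL19A1 were among the 7, and COL14A1 was among the 3. Neither had a liver count at 8L, so their place in these counts is set by a group at 0. COL5A2 was among the 7 genes with -2.001 ± 0.75 (edgeR adjusted p = 0.206), as were COL5A1 and COL4A2 with -1.83 ± 0.77 and -1.95 ± 0.84. For 12v against 8L COL3A1 had -1.51 ± 0.64 and COL18A1 -1.75 ± 0.98 (edgeR adjusted p = 0.390 and 0.526). COL4A2 had 0.44 ± 0.88 in that contrast, opposite in sign to COL4A1 (edgeR adjusted p = 0.903). COL14A1 was among the smallest p of both contrasts, but its liver libraries at 8L were all at 0, so its fitted difference is not printed.

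DESeq2 and limma-voom called COL4A1 and COL3A1 in the contrast of 16v against 8L (adjusted p = 0.00291 and 0.000916 in DESeq2, 0.0310 and 0.0429 in limma-voom). The shares of all genes that these tools called in this contrast are not given here, so the calls lack a background. With the bird as a block both lay at an edgeR adjusted p of 0.384, with differences of -3.19 and -2.94. Without the 4 adipose libraries high in muscle markers they lay at an edgeR adjusted p of 0.231 and 0.281. CDH5, an endothelial marker, had a difference of -2.87 ± 0.64 (edgeR adjusted p = 0.0519), close to that of COL4A1, and its part in the collagen values was not tested.

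The partners of collagen had no member past the threshold in any day-length contrast, where 0% to 0.794% of all genes passed. In liver at 16v against 8L, all 9 tested matrix partners had values above 0, against 52.5% of all genes. Their median was 0.73, against 0.07 over all genes. FN1, the gene of fibronectin, had 0.75 ± 0.34 (edgeR adjusted p = 0.225), and PPIB, a prolyl isomerase of the folding machinery, had -2.70 ± 0.74 (edgeR adjusted p = 0.0883). Of the 7 folding and modification genes tested in liver, 3 lay above 0 and 4 below. In adipose tissue at 16v against 8L, SERPINH1 had a mean of 396 ± 101 CPM at 16v and 765 ± 119.6 CPM at 8L (SD, n = 4 each). Its groups did not overlap, and 3.56% of all genes likewise had 16v wholly below 8L. SERPINH1 had a log2 fold change of -0.94 ± 0.27 (edgeR adjusted p = 0.527). The 12 folding and modification genes tested in adipose tissue were split, 6 above 0 and 6 below, with a median of -0.02. AGRN, the basement membrane proteoglycan agrin, had 24.7 ± 22.3 CPM at 16v and 127 ± 17.6 CPM at 8L (SD, n = 4 each), with a log2 fold change of -2.15 ± 0.51 (edgeR adjusted p = 0.321). PCOLCE2 had 81.8 ± 28.8 CPM at 16v and 17.97 ± 7.299 CPM at 8L (SD, n = 4 each), with a log2 fold change of 2.17 ± 0.57 (edgeR adjusted p = 0.457). Of the 7 genes for propeptide removal and cross-linking tested in adipose tissue, 3 lay above 0 and 4 below.

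Basement membrane partners gave differences between the tissues of the same sign as COL4A1. Of 9 tested, 8 had an adipose minus liver difference below 0 in the 16v over 8L contrast, against 54.5% of all genes. Their median was -2.30, against -0.17 over all genes, and 0 passed, against 0.295%. A gene passed the joint filter through either tissue, so these differences can rest on few liver counts. Fitted by tissue, 2 of the 14 listed partners were tested in liver, 1 above and 1 below 0 for 16v against 8L. In adipose tissue 10 were tested, 2 above and 8 below 0, with a median of -0.46. PXDN, the peroxidasin that cross-links type IV collagen, had -3.87 ± 0.92 (edgeR adjusted p = 0.0564), and LAMB1, a laminin chain, had -2.83 ± 0.76 (edgeR adjusted p = 0.0908). Of 19 listed TGF-beta signalling genes, 4 were tested in liver and 10 in adipose tissue, and SMAD7, an inhibitor of the pathway, had 1.98 ± 0.58 for 16v against 8L in adipose tissue (edgeR adjusted p = 0.527).

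Pairs of chains were compared across the 12 adipose libraries, where both chains of a pair had enough counts. In liver no chosen pair did. Most pairs share a molecule, while COL1A1 with COL3A1, with COL4A1 and with COL6A3 are chains of different molecules. Of 9 pairs, 6 passed a permutation test of Pearson's r with Benjamini-Hochberg adjustment over the 9. COL1A1 with COL3A1 and COL1A1 with COL6A3, from different molecules, were among the 6. COL4A1 and COL4A2 had r = 0.934 and rho = 0.916 (permutation p = 1e-05 and 0.00012, adjusted 9e-05 and 0.00108; 1e-05 is the smallest the permutations can give). With group means subtracted r was 0.898 (permutation adjusted p = 0.0236), and without the 2 libraries farthest from the median of COL4A1, 8L replicate 3 and 16v replicate 3, it was 0.882 (permutation adjusted p = 0.00801). The largest-transcript count of COL4A1 was 1.67 to 3.00 times that of COL4A2 in the 12 libraries.

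COL1A1 and COL1A2 had r = 0.879 and rho = 0.727 (permutation p = 8e-05 and 0.00935, adjusted 0.00036 and 0.0210), and r = 0.865 with group means subtracted (permutation adjusted p = 0.0236). Without the 2 farthest libraries, 8L replicate 3 and 16v replicate 3, r was 0.706 and no longer passed (permutation adjusted p = 0.0667). COL5A1 with COL5A2 had r = 0.803 and rho = 0.762, COL6A1 with COL6A2 r = 0.745 and rho = 0.762, and COL1A1 with COL3A1 r = 0.714 and rho = 0.664. All 3 pairs passed by both measures (permutation p of r 0.00109, 0.00328 and 0.0101, adjusted 0.00327, 0.00738 and 0.0183). With group means subtracted their r was 0.595, 0.76 and 0.73 and none passed (permutation adjusted p = 0.212, 0.0612 and 0.0612). Without the 2 farthest libraries, which include 16v replicate 3 each time, their r was 0.749, 0.545 and 0.605 and none passed. This leaves 10 libraries and a narrower range. The lost calls therefore cannot show that the relations rest on the libraries left out.

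COL6A3 went less closely with the other type VI chains. It had r = 0.522 with COL6A1 and 0.407 with COL6A2 (permutation p = 0.0851 and 0.193, adjusted 0.109 and 0.217), and without 16v replicates 1 and 3 the first was -0.06. COL1A1 with COL6A3 passed by r alone, at 0.692 (permutation p = 0.0149, adjusted 0.0223) with rho = 0.483. This call was lost with group means subtracted, at r = 0.691, and without the 2 farthest libraries, at r = 0.552 (permutation adjusted p = 0.0612 and 0.156). COL1A1 and COL4A1, chains of the interstitial fibrils and of the basement membrane, had r = 0.132 and rho = 0.154 (permutation p = 0.684 and 0.635, both the adjusted values as well). All genes of a library share its depth and scaling, which these correlations do not remove.

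**Figure D5:**
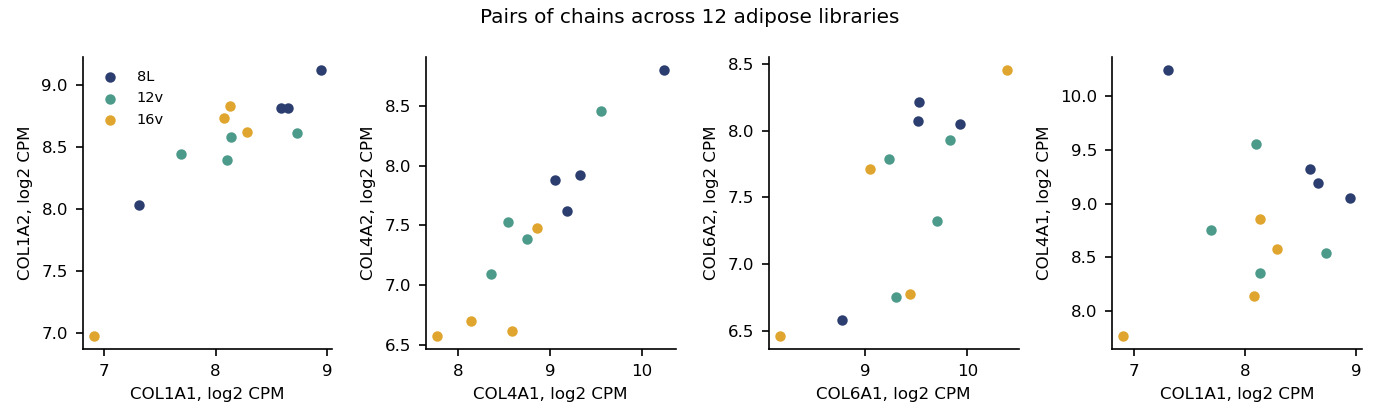
Log2 CPM of pairs of collagen chains in 12 adipose libraries, coloured by photoperiod. COL4A1 and COL4A2 lie along a line (r = 0.934), as do COL1A1 and COL1A2 (r = 0.879), while COL1A1 and COL4A1 do not (r = 0.132); the lowest COL1A1 point is 16v replicate 3.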

How the data were processed

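For each tissue the authors deposited a table of expected counts per transcript and library, without normalization. The tools named in the submitters' processing notes include minimap2 and Salmon. A genome build and an annotation are not given in the sources used. Transcript counts were summed per gene and rounded; of the deposited values, 99.6% in adipose tissue and 99.5% in liver were whole within 1e-06.

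Each tissue was fitted with the edgeR quasi-likelihood test (robust, TMM factors, filterByExpr with minimum count 10 and minimum total 15) with a mean per photoperiod, and both tissues together with 6 group means over the genes in both tables. Benjamini-Hochberg adjustment ran over all genes tested, with a threshold of 0.05; an adjusted p in the text is from edgeR unless another tool is named. Each SE was taken as the absolute log2 fold change divided by sqrt(F). CPM uses the scaled library size. Correlations used log2 CPM (prior count 2) and 100000 two-sided permutations. The fits were tested on simulated data. Versions were edgeR 4.0.16, DESeq2 1.42.0 and limma 3.58.1, run in R 4.3.3, with Python 3.11.15 for the rest.

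Groups come from the sample titles. The labels give samples separate numbers and nothing more, so p-values measure the spread between these samples. Sample numbers did not pair libraries within a tissue (same-number correlations -0.10 to 0.05 in adipose tissue, -0.17 to 0.21 in liver). Numbers in the library codes, taken to mark the bird, pair the tissues, although libraries of 1 number correlated at only -0.04 to 0.07; a fit with the bird as a block was run. Values per library are given for COL4A1, COL4A2 and the type I, III, V, VI, XII, XIV, XV and XVIII chains where tested; folds for up to 15 collagen genes past the threshold per contrast or, with fewer than 4 past it, the 4 of smallest p, and for up to 4 genes of each other list. Members, gene lists and this rule were chosen with earlier results of these data known. Of the symbols, 31 of 34 in adipose tissue and 29 of 31 in liver were in the quail RefSeq table, which holds 0 of the tables' transcript accessions. Alternatives were other scalings, filters and tools, 1 transcript per gene, covariates, blocks, 2 groups alone, and libraries left out.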

Additional observations from a re-analysis of the deposited data

Results flagged for a closer look

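COL4A1 differed in direction between the tissues for 16v against 8L: its 4 libraries at 16v lay wholly below those at 8L in adipose tissue and wholly above them in liver. The difference in log2 fold change, adipose minus liver, was -2.88, with an edgeR adjusted p of 0.0549. None of the other collagen genes tested within both tissues had opposite, non-overlapping groups in this way. COL4A2 and COL14A1, also wholly lower at 16v in adipose tissue, were not tested in liver. The share of all genes with such opposite groups is not given here.

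Single libraries stood apart from the other 3 of their group by Dixon's 95% criterion in 9 of the 84 gene-by-group sets examined. For normally spread values chance flags about 1 in 20, and counts as small as those in liver need not spread so. In adipose tissue COL4A1 was 1205 CPM in 8L replicate 3 (others 528 to 637), and COL6A2 was 93.2 CPM in the same library (others 262 to 294). COL4A2 was 175 CPM in 16v replicate 1 (others 92.7 to 101), and COL5A2 was 87.8 CPM in 8L replicate 2 (others 120.2 to 124). In liver 16v replicate 1, COL3A1 was 323 CPM (others 188 to 209), COL1A2 was 28.6 CPM (others 20.8 to 22.1) and COL4A6 was 22.0 CPM (others 12.98 to 13.99). At 8L in liver, COL23A1 was 478 CPM in replicate 4 (others 119 to 128) and COL3A1 was 161 CPM in replicate 3 (others 107.5 to 110.0). These liver values rest on few reads. Largest-transcript counts in 16v replicate 1 were 21 for COL3A1 (others 23 to 25), 13 for COL1A2 (16 to 20) and 5 for COL4A6 (5 to 6). These counts are not scaled to the library, so they do not show whether the scaled values stand apart. Over all genes, 16v replicate 1 had 265689 such counts, against 363366 to 494752 in the others. At 8L, COL3A1 had 11 in replicate 3 and also 11 in replicate 4. COL23A1 had 18 in 8L replicate 4 and 3 in each other 8L library.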

How the results depend on the processing

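In liver, the count of collagen genes called for 12v against 8L was 0 in edgeR and 1 in DESeq2; leaving out single libraries gave 0 to 1, with COL4A1 called without 12v replicate 4. For 16v against 8L in adipose tissue it was 0, and 1 in DESeq2. Counts of all genes called differed more: for 16v against 8L DESeq2 called 38 in adipose tissue, where edgeR called 0.

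For adipose tissue against liver, 15 genes passed, 14 with the bird as a block, and 9 with 1 transcript per gene, where 12 were tested. Of all genes, 54.9% passed in the fit without a block. The shares with the block and with 1 transcript per gene are not given here, so the counts of 14 and 9 lack a background. The block changed the call of COL14A1 and of no other collagen gene; within tissues, a block of the sample number called 0, as did the fits without it. The median of all genes for this contrast was 0.29 with TMM, 0.59 with RLE and 0.91 with unscaled library sizes, where higher calls made up 56.5%, 66.7% and 74.4% of calls. For 16v against 8L in liver it was 0.33 with library size alone, where 76.1% of calls were higher.

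For the difference between tissues, 12v against 8L gave 1 gene (COL4A1) with the stricter filter, DESeq2 and 1 transcript per gene, and 0 to 1 without single libraries, the 1 without liver 12v replicate 4. For 16v against 8L there was 1 (COL3A1) with RLE factors, library size alone and without the 3 or 4 liver libraries high in ribosomal protein counts, and 2 (COL3A1 and COL4A1) with the stricter filter, limma-voom, DESeq2 and 1 transcript per gene. Leaving out single libraries gave 0 to 2, above 0 without liver 8L replicate 4, liver 12v replicate 3 and liver 12v replicate 4. Among the 7107 genes tested, RLE factors called 45 for 16v against 8L and library size alone called 33. Shares of all genes called with the other alternatives are not given here. COL4A1 ran from -3.29 to -2.54 over the 37 alternatives and COL3A1 from -2.94 to -2.24. COL3A1 for 16v against 12v in liver reversed to -0.16 without the 3 libraries high in ribosomal protein counts, and was 0.64 without 4; the cause was not tested. COL12A1 for 12v against 8L in liver reversed to -5.31 without the 4, where the 1 library left at 12v is at 0 and is assumed to vary like the other groups, and COL12A1 then passed as higher in adipose tissue than in liver.

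Without the 2 farthest libraries r was 0.706 for COL1A1 with COL1A2, 0.749 for COL5A1 with COL5A2, 0.545 for COL6A1 with COL6A2, 0.605 for COL1A1 with COL3A1, 0.552 for COL1A1 with COL6A3 and -0.0601 for COL6A1 with COL6A3. The exclusions of muscle-high adipose libraries, of the 4 liver libraries and, in the joint fit, of the 3 were chosen after seeing the data. The 3 liver libraries were 12v replicates 1 and 3 and 16v replicate 1, a choice that kept 12v replicate 2 (12.2%) and dropped 12v replicate 3 (11.4%), the shallowest; the 4 add 12v replicate 2. In liver, 22 of 31 listed genes had 1 to 99 summed counts and were not tested.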
